A study of Mus musculus with 6 samples.

Results

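Collagens are the structural proteins of the extracellular matrix, and each is built from 3 chains wound into a triple helix whose chains carry glycines at regular intervals. The collagen family was taken as all gene names on the array that read Col, a number, the letter a and a number, which gave 44 of the 24081 gene symbols, represented by 69 of the 55681 probes. They were grouped into 11 fibrillar collagens, 8 collagens of basement membranes and 25 other collagens. The last group comprised 9 FACIT collagens, which decorate fibrils, 6 chains of the beaded filaments of type VI, 4 transmembrane collagens, 3 short chain collagens, the anchoring fibril collagen Col7a1, and Col26a1 and Col28a1.

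Fibrillar collagens form the tensile fibers of skin, bone, tendon and the meninges, the connective tissue that covers the brain. In the brain itself, basement membranes with type IV collagen lie around blood vessels and beneath the end feet of astrocytes at the pial surface. Collagen of the brain is mostly made by fibroblasts of the meninges and by cells of the vessel wall, whereas neural precursors are known for few collagens.

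The 6 samples were magnetically sorted cells of neonatal mouse cerebellum (wild type, strain CD1, postnatal days 1 to 3 by the sample labels), with 50000 cells and 1 one-color array per sample. Of these, 3 samples were enriched for cells with the astrocyte antigen ACSA-2 and the glutamate transporter GLAST (A+/G+). The other 3 were enriched for cells with GLAST but without ACSA-2 (A-/G+). By the flow cytometry of the study, neither kind of fraction was pure. The methods of the study give a slightly younger age and name another strain background for wild-type mice. ACSA-2 positive cells without GLAST were counted with A+/G+, so that this fraction rests on ACSA-2 alone, whereas A-/G+ cells were first cleared of ACSA-2 positive cells, neurons, leukocytes and red blood cells and then selected for GLAST. These steps removed no fibroblast, pericyte or endothelial cell by an antigen of its own. Tissue of either sex was used, and all cells were sorted fractions, so that fewer cells of a type and less RNA per cell cannot be told apart.

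The arrays themselves differed. The 75th percentile of the intensity lay between 332 and 334 in A+/G+ but was 56.6, 113 and 251 in A-/G+ replicates 1, 2 and 3, and 18349 to 24738 probes were detected in A-/G+ compared with 26478 to 26664 in A+/G+. Here, a probe is detected on an array where the scanner software marked it as well above background. Each fraction had a slide of its own, and slide and fraction cannot be told apart. All 10 markers of astroglia were detected on all 6 arrays. Atp1b2, which encodes the ACSA-2 antigen, had a log2 signal higher by 2.16 in A+/G+ (adjusted p = 0.00725, limma), and Slc1a3, which encodes GLAST, had a difference of -1.19 (adjusted p = 0.0733, limma). Below, a value is a quantile normalized log2 signal, and a difference is the mean of A+/G+ minus the mean of A-/G+ on this scale with 3 arrays per fraction. A gene is represented by its probe with the highest mean signal. Adjusted p-values are from limma with Benjamini-Hochberg adjustment over all 55681 probes. A gene passed the test when its adjusted p was at most 0.05, and it was called when the medians of the fractions were also at least 4-fold apart.

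Collagen genes are recognized by their repeating glycine codons, and 2 of the 69 probes read at least 5 of them at regular spacing. These 2 probes, which measured Col25a1 and Col15a1, are shown to make visible what the array detected, with the glycine codons in capitals. The Col25a1 probe lies at chr3:130270497-130270556 and the Col15a1 probe at chr4:47283786-47283845, both on the plus strand of mm9 as annotated for the array.
Col25a1: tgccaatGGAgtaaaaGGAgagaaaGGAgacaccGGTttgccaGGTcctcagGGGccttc
Col15a1: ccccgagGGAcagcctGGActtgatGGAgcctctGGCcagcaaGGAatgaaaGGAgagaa

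Most collagens that differed were higher in A+/G+, while Col2a1 and Col25a1 went the other way by a wide margin. Of the 44 genes, 8 passed with higher signal in A+/G+, which is 18.2% compared with 7.48% of all genes, and 3 passed with higher signal in A-/G+, which is 6.82% compared with 5.12% of all genes. The 4-fold limit left Col6a3, Col22a1 and Col26a1 as called higher in A+/G+ (6.82% compared with 2.62% of all genes) and Col2a1 and Col25a1 as called higher in A-/G+ (4.55% compared with 0.44%). The remaining 33 genes did not pass. When quantile normalization was replaced by a shift to the 75th percentile, 3 collagens were called toward A+/G+ and 4 toward A-/G+, beside 617 and 566 of all 24081 genes. The calls added toward A-/G+ were Col4a3, whose probe was well above background on no array, and Col8a1, whose probe was so on 1 A-/G+ array only. In the quantile normalized data, 630 and 106 of all genes were called. That scaling moved the median difference of all genes by -0.36, from -0.03 to -0.39.

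The values of the arrays were often separated without passing the test. The lowest A+/G+ array exceeded the highest A-/G+ array for 23 collagens (52.3%, compared with 19.1% of all genes), and the reverse held for 9 (20.5%, compared with 23.3%). The fractions overlapped for the other 12. For a single gene, the exact permutation test of 3 arrays against 3 cannot give a two-sided p below 0.1. The median difference was 0.85 over the 44 genes, 1.04 over the fibrillar, 0.51 over the basement membrane and 0.58 over the other collagens, beside -0.03 over all genes. With the 75th percentile shift, the median was 0.30 over the 44 genes and -0.07 over the other collagens, beside -0.39 over all genes, and normexp gave 0.29 and 0.11. By their brightest probe, 26 collagens were detected on all 6 arrays, 11 on some arrays and 7 on none.

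**Figure D1:**
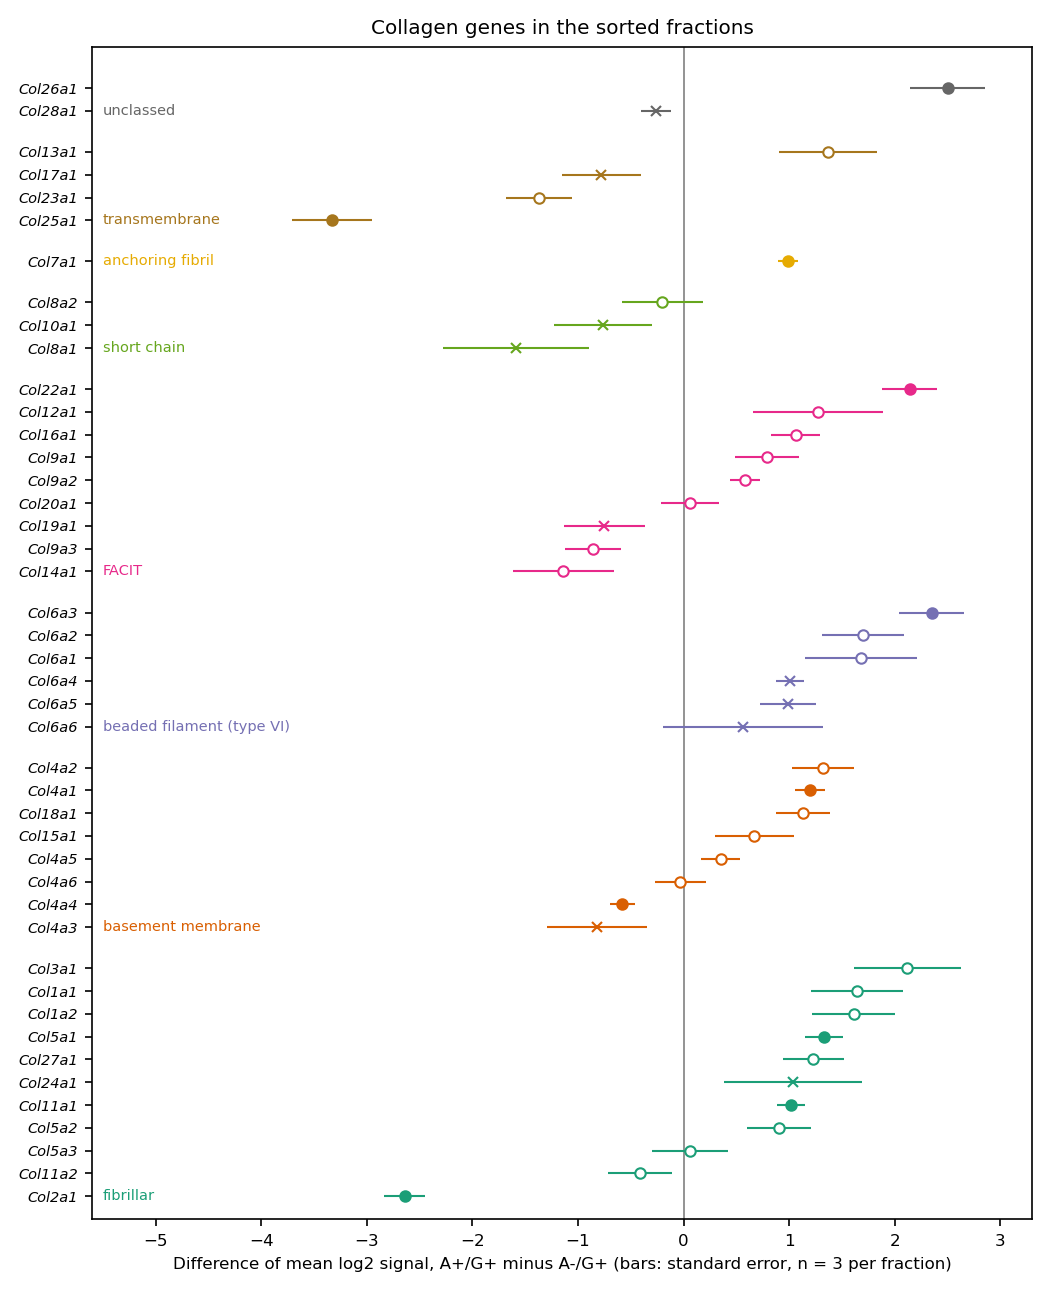
Difference of mean log2 signal, A+/G+ minus A-/G+, with its standard error for all 44 collagen genes, grouped by class (3 arrays per fraction). Filled circles passed the adjusted p and open circles did not, while crosses mark genes that were not detected on all arrays of either fraction. Col2a1 at -2.64 and Col25a1 at -3.33 lie far to the left, whereas Col26a1 at 2.50 and Col6a3 at 2.35 lie farthest to the right.

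Col2a1 encodes the fibrillar collagen of cartilage, which early neuroepithelium and some glial precursors are also known to transcribe. The signal of Col2a1 was 10.53, 10.77 and 11.04 on the A+/G+ arrays and 13.46, 13.65 and 13.14 on the A-/G+ arrays. The lowest A-/G+ value was more than 2 log2 units above the highest A+/G+ value, and the spread was the same in both fractions (SD 0.26, n = 3). The difference was -2.64 (standard error 0.195, adjusted p = 0.00572, limma), with medians 6.49-fold apart. Its probe lies on chromosome 15 of mm9, from 97806071 to 97806130. Among the 5 called collagens, Col2a1 alone kept its call without any one of the arrays (adjusted p of at most 0.0367).

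The other fibrillar collagens formed a contrast to Col2a1. Col1a1 and Col1a2, whose chains make up type I collagen, Col3a1, its partner in soft tissue, and Col5a1, Col5a2, Col11a1 and Col27a1 had separated fractions with A+/G+ on top. Of these 7 genes, Col5a1 and Col11a1 passed. Col5a1, which nucleates fibrils, had 10.26, 10.39 and 10.13 in A+/G+ and 9.05, 9.15 and 8.57 in A-/G+, a difference of 1.33 (standard error 0.18, adjusted p = 0.0192, limma). With the methods' t-test, Col5a1 did not pass (Benjamini-Hochberg adjusted p = 0.0502). Col11a1, which encodes a minor fibrillar chain, had 6.28, 6.47 and 6.27 compared with 5.42, 5.47 and 5.08, a difference of 1.02 (standard error 0.132, adjusted p = 0.0178, limma). With normexp background correction, the difference of Col11a1 was 0.49. Both differences were under 4-fold, and both genes lost significance without any of the 3 A+/G+ arrays.

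The chains of types I and III had larger differences with a wider spread among the A-/G+ arrays. Col1a2 had 15.31, 15.54 and 15.27 in A+/G+ and 14.39, 13.94 and 12.95 in A-/G+. The difference was 1.61 (standard error 0.394, adjusted p = 0.0755, limma). Col3a1 had 13.72, 13.67 and 13.48 compared with 12.35, 11.72 and 10.46. Its difference was 2.12 (standard error 0.506, adjusted p = 0.0719, limma), with medians 3.88-fold apart. Col1a1 went from 12.63, 12.76 and 12.60 to 11.81, 11.10 and 10.16, with a difference of 1.64 (adjusted p = 0.0912, limma). For each of these 3 genes, A-/G+ replicate 1 was nearest to the A+/G+ arrays and replicate 3 was farthest. Without A-/G+ replicate 3, Col1a2 and Col3a1 passed. The number of collagens that passed then rose from 8 to 14 toward A+/G+ and from 3 to 5 toward A-/G+. The shares of all genes that passed without this array were 11.9% and 9.23%, up from 7.48% and 5.12%. Of the remaining fibrillar genes, Col5a3 and Col11a2 overlapped between the fractions with differences of 0.06 and -0.41, and Col24a1 was detected on 2 A+/G+ arrays and on none of the A-/G+ arrays.

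**Figure D2:**
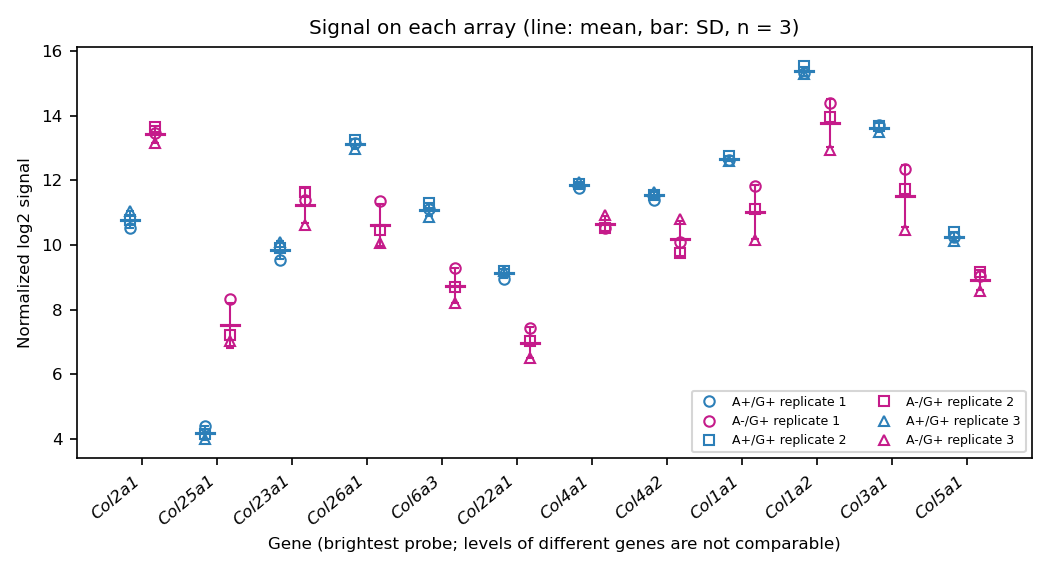
Normalized log2 signal of 12 collagen genes on each of the 6 arrays, with the mean and SD of each fraction (n = 3). The A+/G+ arrays of 1 gene lie close together, whereas A-/G+ replicates spread from 12.35 to 10.46 for Col3a1 and from 11.81 to 10.16 for Col1a1.

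Type VI collagen forms beaded filaments that anchor cells to the matrix around them. Mean signal of all 6 type VI genes was higher in A+/G+, and for 5 of them the arrays were separated (19.1% of all genes). Of these 5, Col6a4 and Col6a5 were not detected on any array, which leaves Col6a1, Col6a2 and Col6a3. Col6a3, the largest chain, had 11.12, 11.29 and 10.87 in A+/G+ and 9.30, 8.71 and 8.22 in A-/G+. The difference was 2.35 (standard error 0.306, adjusted p = 0.0179, limma), with medians 5.3-fold apart. Col6a1 (12.52, 12.69 and 12.44 compared with 11.86, 10.92 and 9.84) and Col6a2 (10.24, 10.42 and 10.21 compared with 9.32, 8.61 and 7.85) are the partner chains of Col6a3. Their differences of 1.68 and 1.70 did not pass (adjusted p = 0.14 and 0.0654, limma). A second probe of Col6a2 passed (difference 1.95, adjusted p = 0.00398, limma), yet it was detected on 2 A+/G+ arrays only. Col6a4 passed as well (difference 1.01, adjusted p = 0.0181, limma), but its probe was not detected on any array, so no fold is given. Its difference turned to -0.20 under the shift to the 75th percentile.

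Among the basement membrane collagens, Col4a1 passed with higher signal in A+/G+ and Col4a4 with higher signal in A-/G+, and the other 6 did not pass. Col4a1, which encodes the most widespread chain, had 11.75, 11.88 and 11.94 in A+/G+ and 10.51, 10.52 and 10.94 in A-/G+, a difference of 1.20 (standard error 0.143, adjusted p = 0.0147, limma) with medians 2.57-fold apart. Col4a2, which joins Col4a1 in the same trimer, had 11.40, 11.55 and 11.64 compared with 10.08, 9.74 and 10.80. Its difference of 1.32 was about as large (standard error 0.292) and did not pass (adjusted p = 0.06, limma). For both genes the A-/G+ array nearest to A+/G+ was replicate 3, the array that was farthest for types I and III. The values of Col4a1 without each array in turn ranged from 1.13 to 1.34, with adjusted p from 0.0065 to 0.0716.

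The type IV genes lie in the genome as pairs that start next to each other and run in opposite directions. The promoters of Col4a1 and Col4a2 are shown because the genes share part of this stretch and the arrays of both were separated between the fractions, although Col4a2 did not pass. RefSeq (GRCm38.p6) places the promoter window of Col4a1 at chr8:11312777-11313076 on the minus strand and that of Col4a2 at chr8:11312555-11312854 on the plus strand, and the windows share 78 bases. Each window runs from 250 bases before the start of the gene to 50 after it. Capitals mark the letters CCAAT and GGGCGG on either strand, of which the reverse complements are ATTGG and CCGCCC.
Col4a1: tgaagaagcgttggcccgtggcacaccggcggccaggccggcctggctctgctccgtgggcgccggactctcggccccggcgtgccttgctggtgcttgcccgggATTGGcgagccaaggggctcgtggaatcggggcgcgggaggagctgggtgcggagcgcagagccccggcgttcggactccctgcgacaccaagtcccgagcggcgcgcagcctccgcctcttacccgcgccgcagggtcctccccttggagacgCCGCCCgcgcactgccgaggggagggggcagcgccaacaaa
Col4a2: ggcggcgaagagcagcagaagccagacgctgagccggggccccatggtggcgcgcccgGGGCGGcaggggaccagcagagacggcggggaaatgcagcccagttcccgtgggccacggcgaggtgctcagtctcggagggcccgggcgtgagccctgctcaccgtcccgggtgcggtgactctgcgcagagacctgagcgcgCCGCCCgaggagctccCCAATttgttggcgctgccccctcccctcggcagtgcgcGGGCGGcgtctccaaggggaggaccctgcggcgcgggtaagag
Neither window holds TATAAA on either strand. RefSeq promoters were matched for 35 of the 44 collagen genes, with 38 windows in all. TATAAA was found in 13.2% of these windows and in 13.6% of all 32851 promoter windows, CCAAT in 34.2% and 37.4%, and GGGCGG in 60.5% and 35.7%, respectively. These letters are a description of the windows and not binding sites.

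Col4a5 and Col4a6, the pair on the X chromosome, overlapped between the fractions. Col4a5 had 10.16, 10.29 and 10.23 compared with 10.17, 9.96 and 9.51 (difference 0.35, adjusted p = 0.356, limma), and Col4a6 had 9.86, 10.54 and 10.43 compared with 10.13, 10.62 and 10.17 (difference -0.03, adjusted p = 0.951, limma). Whether the pairs differ from each other was not tested. Col4a4, a chain known from the kidney glomerulus, had 4.49, 4.79 and 4.79 in A+/G+ and 5.38, 5.16 and 5.29 in A-/G+. This small difference of -0.58 passed (standard error 0.118, adjusted p = 0.0482, limma), but the probe was detected on 2 of the 3 A-/G+ arrays, its other probes were at background, and it no longer passed without any single array. With normexp background correction its difference was -0.22, and with the mean of its probes -0.15. Col4a3 was not detected on any array. Col18a1, the source of endostatin, had 11.08, 11.23 and 10.93 compared with 10.17, 9.42 and 10.25 (difference 1.13, adjusted p = 0.0628, limma). Its second probe passed with a difference of 1.43 (adjusted p = 0.0148, limma). Col15a1 had a difference of 0.67 (adjusted p = 0.388, limma) by the probe shown above.

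Transmembrane collagens sit in the plasma membrane and can be shed from it. Col23a1 and Col25a1 had separated fractions with A-/G+ on top, and Col13a1 with A+/G+ on top. Col25a1, known for its shed form in amyloid plaques and for its role in muscle innervation, had the largest difference of all collagens by brightest probe in the quantile normalized data. Its signal was 4.41, 4.17 and 4.0 in A+/G+ and 8.32, 7.21 and 7.04 in A-/G+. The lowest A-/G+ array was far above the highest A+/G+ array, and the probe was detected on all 6. The difference was -3.33 (standard error 0.38, adjusted p = 0.0133, limma), with medians 8.2-fold apart.

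The probe that carries this value lies near the upstream end of the probes of the gene, on chromosome 3 of mm9 from 129885684 to 129885743. The probe with the glycine codons shown above lies downstream of it. It was detected on 1 A-/G+ array and on none of A+/G+, with a measured difference of -2.82 (adjusted p = 0.0266, limma). No fold is given, since A-/G+ itself was detected on 1 array only. A further probe, also detected on 1 A-/G+ array, did not pass (adjusted p = 0.171, limma), and the last was detected on 1 A+/G+ array only. The call of Col25a1 was lost without any of the A+/G+ arrays (adjusted p of at most 0.0676) and was kept without each A-/G+ array. With normexp its difference was -1.63 and under the 4-fold limit, and with the mean of its 4 probes it was -1.9. In these settings Col2a1 had the larger difference, with -2.55 and -2.64.

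Col23a1, another membrane collagen, had 9.55, 9.91 and 10.08 in A+/G+ and 11.40, 11.63 and 10.63 in A-/G+. The difference of -1.37 did not pass (standard error 0.309, adjusted p = 0.0628, limma). All 3 probes of Col23a1 were detected on all arrays with differences of -1.41 to -1.16, and 1 of them passed (adjusted p = 0.0444, limma). The brightest probe passed with the 75th percentile shift, normexp, the filter on dim probes, and trend and robust variance (adjusted p = 0.0489, 0.0217, 0.0236 and 0.0419, limma). Col13a1, found at the neuromuscular junction, had a measured difference of 1.37 that did not pass (adjusted p = 0.162, limma). Its probe was not detected on any A-/G+ array. The difference of Col13a1 became 0.59 with normexp and 1.02 without A-/G+ replicate 3. Col17a1, a hemidesmosome collagen of skin, was not detected on any array.

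Col26a1 was the collagen with the largest difference toward A+/G+. It is a secreted collagen first described in testis and ovary, and in the array its signal was 13.15, 13.25 and 12.97 in A+/G+ and 11.35, 10.45 and 10.07 in A-/G+. The difference was 2.50 (standard error 0.351, adjusted p = 0.021, limma), with medians 6.51-fold apart. A second probe gave 2.56 (adjusted p = 0.0267, limma), but it covers nearly the same bases, from 137217629 to 137217688 on chromosome 5 of mm9, compared with 137217634 to 137217693, so that it is not independent of the first. With the methods' t-test, the first probe did not pass (Benjamini-Hochberg adjusted p = 0.0553). Col7a1, which anchors the epidermis to the dermis, had 9.24, 9.16 and 9.27 compared with 8.40, 8.10 and 8.20. This difference of 0.99 passed (SD 0.06 in A+/G+ and 0.15 in A-/G+, n = 3 each, standard error 0.0948, adjusted p = 0.00945, limma).

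FACIT collagens bind to the surface of fibrils and have interrupted triple helices. Col22a1, known from tissue junctions such as that of muscle and tendon, had 8.95, 9.20 and 9.20 in A+/G+ and 7.43, 7.02 and 6.50 in A-/G+. The difference was 2.14 (standard error 0.259, adjusted p = 0.0152, limma), and its medians lay 4.54-fold apart. With normexp the difference was 1.69, and the medians were under 4-fold apart. Col16a1 had 12.35, 12.33 and 12.30 compared with 11.60, 11.44 and 10.77 (difference 1.06, adjusted p = 0.0595, limma). Both of its dimmer probes that were detected in A+/G+ passed, with differences of 1.48 (adjusted p = 0.0149, limma) and 1.38 (adjusted p = 0.00613, limma).

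**Figure D3:**
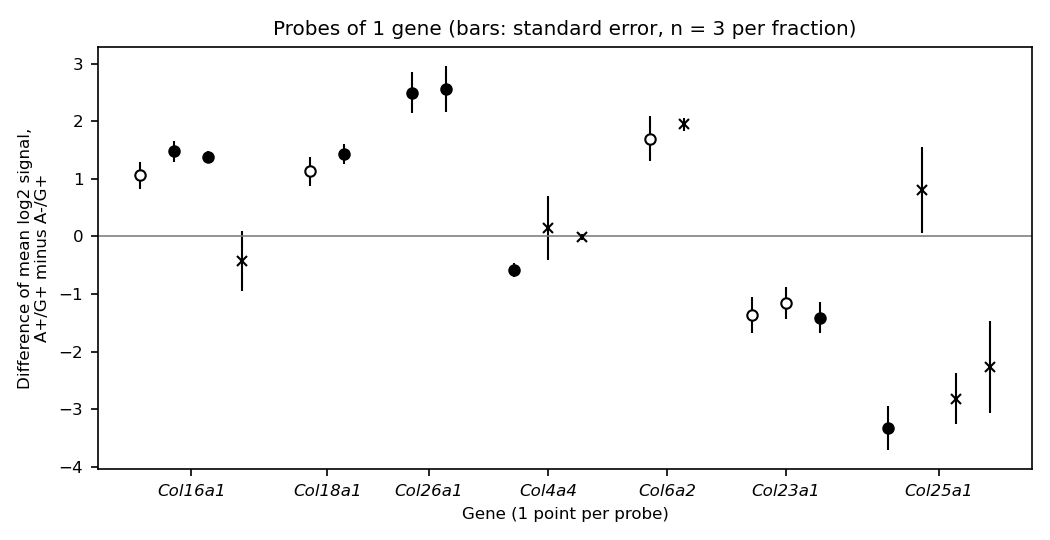
Difference of mean log2 signal with its standard error for each probe of 7 collagen genes with several probes (3 arrays per fraction, probes of a gene ordered by their A+/G+ signal). Filled circles passed the adjusted p, open circles did not, and crosses were not detected on all arrays of either fraction, whatever their p. The 3 probes of Col23a1 lie between -1.41 and -1.16, whereas the probes of Col25a1 range from -3.33 to 0.81.

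Col9a1, Col9a2 and Col9a3 form type IX collagen, which decorates type II fibrils. Although Col2a1 was higher in A-/G+, Col9a2 had 10.90, 11.20 and 10.88 in A+/G+ and 10.62, 10.35 and 10.27 in A-/G+ (difference 0.58, adjusted p = 0.0729, limma), and Col9a1 had a difference of 0.79 (adjusted p = 0.21, limma). Col9a3 had the opposite sign (difference -0.86, adjusted p = 0.133, limma). None of the 3 passed. Col14a1 had 6.25, 6.37 and 6.28 compared with 7.78, 8.14 and 6.41 (difference -1.14, adjusted p = 0.246, limma), with A-/G+ replicate 3 close to the A+/G+ arrays. Differences of 1.27 for Col12a1 and 0.06 for Col20a1 did not pass, and Col19a1 was at background on all arrays. Of the short chain collagens, Col8a2 overlapped between the fractions (difference -0.20, adjusted p = 0.772, limma), Col8a1 was detected on 1 A-/G+ array only and did not pass (limma, adjusted p = 0.267), and Col10a1 was at background. Col5a2 and Col27a1 (differences 0.90 and 1.23), Col6a5 and Col28a1 (both at background) and Col6a6 (detected on 1 array) complete the family, and none of them passed.

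The A-/G+ arrays differed among themselves in a pattern that ran through much of the family. Over the 26 collagens that were detected on all arrays, the median SD was 0.54 among the A-/G+ arrays and 0.14 among the A+/G+ arrays, and the SD was larger in A-/G+ for 23 of them. A-/G+ replicate 3 was the lowest of its fraction for 18 of the 26, including 7 of 8 fibrillar and all 3 type VI genes. For Col2a1, Col14a1, Col23a1 and Col25a1, which had higher means in A-/G+, the lowest array was the one nearest to A+/G+. Replicate 3 was the highest for 3 of 5 basement membrane genes. The A-/G+ arrays also differed in their overall intensity (75th percentile 56.6, 113 and 251, compared with 332 to 334 in A+/G+). These SDs and counts were not computed over all genes, so whether the pattern is particular to collagens was not tested.

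**Figure D4:**
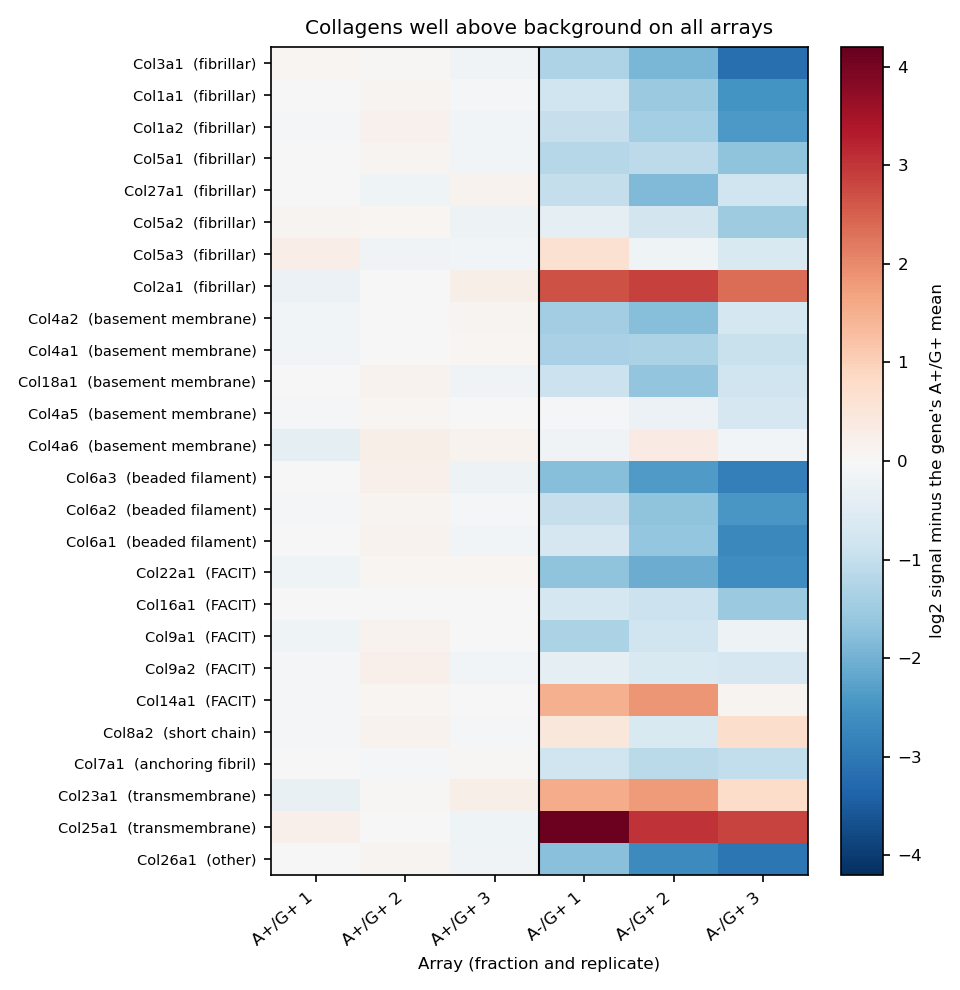
Log2 signal minus the mean of the A+/G+ arrays for the 26 collagens that were detected on all 6 arrays, with 1 row per gene and 1 column per array. Type I, III and VI chains are darkest blue in A-/G+ replicate 3, where Col4a1 and Col4a2 are palest among the A-/G+ arrays, and Col2a1 and Col25a1 are red in all 3 A-/G+ arrays.

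Markers of cells that make collagen moved with the fractions. The counts below stand beside 10587 of 24081 genes with the higher mean in A+/G+ and 7.48% of all genes that passed in this direction. All 12 markers of meningeal fibroblasts had higher mean signal in A+/G+, and 8 of them passed, among them the transcription factors Foxc1 (difference 2.39, adjusted p = 0.0038, limma) and Twist1 (at least 1.17-fold higher, measured difference 2.71, adjusted p = 0.00272, not detected on any A-/G+ array). Their normalized intensities summed to 45300, 53600 and 41700 in A+/G+ and to 16400, 11000 and 6370 in A-/G+, with the same order of the A-/G+ arrays as the type I, III and VI chains. Dcn and Lum of this list also bind collagen and are counted again below, and Pdgfra also marks oligodendrocyte precursors. All 11 pericyte and smooth muscle markers had higher means in A+/G+, and 5 passed, 1 of them Myh11, which was not detected on any array, with sums of 14500, 17200 and 15400 compared with 3280, 2330 and 3000. All 11 endothelial markers had higher means in A+/G+ as well, but Cdh5 alone passed, with sums of 8710, 10300 and 13200 compared with 1940, 2070 and 9000. Here A-/G+ replicate 3 was nearest to A+/G+, as it was for Col4a1 and Col4a2. The part of these cells in the collagen differences was not tested.

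All 6 markers of oligodendrocyte precursors had higher means in A+/G+ too, and 3 of them passed, with sums of 14000 to 17300 compared with 1900 to 4540. Among these 6, Pdgfra is also on the meningeal fibroblast list and Cspg4 on the pericyte and smooth muscle list. No marker of choroid plexus (0 of 7) or of microglia and macrophages (0 of 10) passed, and Ptprc was not detected on any array. Of 6 granule neuron markers, Pax6 passed higher in A-/G+. Of the 10 astroglial markers, Gfap, Aldoc, Gja1 and Atp1b2 passed higher in A+/G+ and Aldh1l1 passed higher in A-/G+, with sums of 200000 to 213000 compared with 149000 to 231000.

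**Figure D5:**
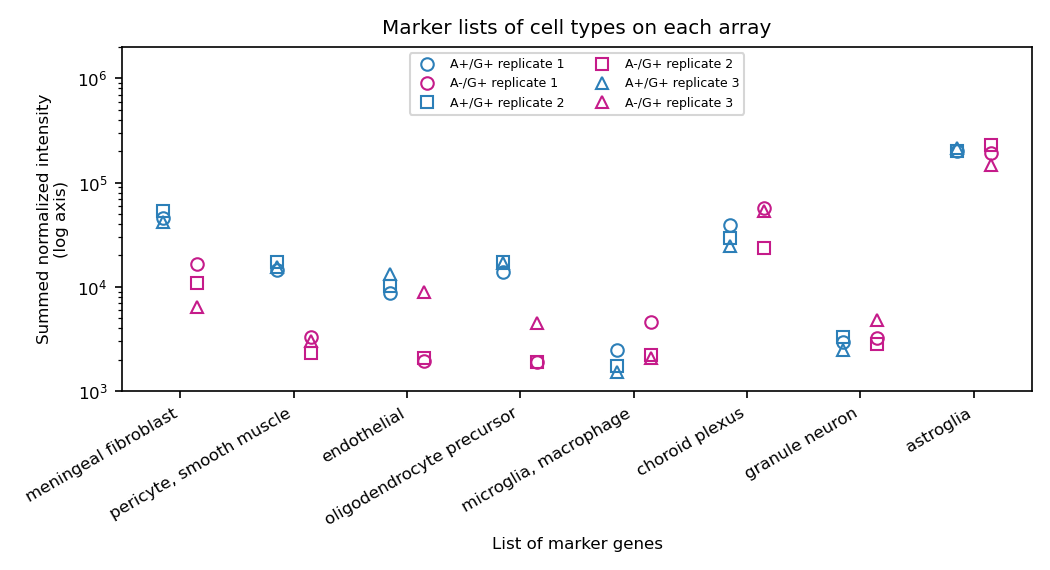
Summed normalized intensity of 8 lists of marker genes on each array (log axis), with the 3 A+/G+ and the 3 A-/G+ arrays of each list side by side. The sums for meningeal fibroblasts (41700 to 53600 compared with 6370 to 16400) and pericytes (14500 to 17200 compared with 2330 to 3280) do not overlap between the fractions. Those for oligodendrocyte precursors (14000 to 17300 compared with 1900 to 4540) do not overlap either, whereas those for the other lists do.

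A collagen chain is hydroxylated and folded in the endoplasmic reticulum, exported in large carriers, trimmed by proteases, cross-linked outside the cell and bound by receptors and matrix partners. Of 73 genes of these steps, 22 passed with higher signal in A+/G+ and 2 with higher signal in A-/G+, and 49 did not pass, beside 7.48% and 5.12% of all genes that passed in the same directions. The partners of fibrils and of basement membranes held 12 of the 22. Among 7 partners of fibrils, 5 passed, led by fibromodulin Fmod, which had 9.70, 10.15 and 9.38 in A+/G+ and 6.77, 5.88 and 5.74 in A-/G+ (difference 3.62, adjusted p = 0.00982, limma). Lum (2.17, adjusted p = 0.0309) and Bgn (1.71, adjusted p = 0.0211), which also bind fibrils, followed it. Fbn1 and Fn1 passed with 1.37 and 1.53.

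Among 12 partners of basement membranes, all had a higher mean in A+/G+ and 7 passed. The laminin chain Lamc3 had 9.37, 9.37 and 9.26 compared with 7.07, 6.80 and 7.18 (difference 2.32, adjusted p = 0.00316, limma). Nid2, a nidogen that links laminin to type IV collagen, had a difference of 1.93 (adjusted p = 0.00666), and the laminin chain Lama2 had 1.78 (adjusted p = 0.0225). In contrast, Nid1 and the perlecan gene Hspg2 differed by 0.02 and 0.01 and did not pass (adjusted p = 0.968 and 0.99, limma).

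Of 17 genes for modification and folding, the collagen chaperone Serpinh1 (0.67, adjusted p = 0.0488) and the glycosyltransferase Colgalt2 (0.87, adjusted p = 0.0278) passed higher in A+/G+, and the lysyl hydroxylase Plod2 passed higher in A-/G+. Plod2 had 8.04, 8.16 and 8.01 in A+/G+ and 9.17, 9.20 and 8.77 in A-/G+ (difference -0.98, adjusted p = 0.0211, limma). Of 5 secretion genes, the coat protein Sec24d passed (1.08, adjusted p = 0.0379). Pcolce, the enhancer of procollagen cleavage, was called higher in A+/G+ (1.99, adjusted p = 0.0132), and the protease Bmp1 passed (0.54, adjusted p = 0.0247), out of 8 cleavage genes. The cross-linking oxidase Loxl3 passed (0.83, adjusted p = 0.0114) out of 5.

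Of 9 genes for the breakdown of collagen, Ctsk (1.47, adjusted p = 0.00592) and the inhibitor Timp3 (0.94, adjusted p = 0.0123) passed, and the gelatinase Mmp9 was called. Mmp9 had 7.77, 7.75 and 7.88 in A+/G+ and 2.61, 2.28 and 5.31 in A-/G+ (measured difference 4.40, adjusted p = 0.0454, limma). Among the A-/G+ arrays, Mmp9 was detected on replicate 3 only. Of 10 collagen receptors, the integrins Itga11 (1.72, adjusted p = 0.0181) and Itga10 (-0.34, adjusted p = 0.0322) passed in opposite directions.

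How many collagens passed depended on single arrays. Without A+/G+ replicate 1, 2 or 3, limma passed 2, 1 and 0 collagens higher in A+/G+ and called 0. Only 1 collagen, Col2a1, remained higher in A-/G+, beside 0.86% to 1.17% of all genes. Without A-/G+ replicate 2, 0 collagens were called higher in A+/G+, since Col6a3, Col22a1 and Col26a1 lost their call. Of all genes, 447 were called higher in A+/G+ without this array, where 5.1% passed in this direction. Without an A+/G+ array, 241 to 286 of all genes were called higher in A+/G+, compared with 630 with all arrays. The share of all genes that passed higher in A+/G+ also fell without an A+/G+ array, from 7.48% to between 2.23% and 2.83%, and rose without A-/G+ replicate 3, to 11.9%. The set of 22 pathway genes that passed higher in A+/G+ became 6, 5 and 5 without A+/G+ replicate 1, 2 or 3 and 11 without A-/G+ replicate 2, and the 2 higher in A-/G+ became 0 without each A+/G+ array or A-/G+ replicate 1, 1 without A-/G+ replicate 2 and 3 without A-/G+ replicate 3. Of all genes, 3.24%, 2.79% and 9.23% passed higher in A-/G+ without A-/G+ replicate 1, 2 or 3, compared with 5.12% with all arrays.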

How the data were processed

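Magnetically sorted cells of neonatal mouse cerebellum (3 A+/G+ and 3 A-/G+ samples) were hybridized to one-color Agilent arrays. For each spot, the authors deposited its intensity, which Agilent Feature Extraction 10.7.3.1 had corrected for background, and a quantile normalized log2 table, used as an alternative (38 empty cells). Intensities were taken to log2, without control spots and outlier spots, quantile normalized, and averaged per probe. The fractions were compared with limma 3.58.1 in R 4.3.3 (Benjamini-Hochberg adjustment; limits of adjusted p 0.05 and 4-fold medians, as in the study's methods). The fit was tested on simulated data. "At least" folds compare the mean of the brighter fraction with the lowest signal well above background on each array, or the probe's own signal where higher. No filter on dim probes was applied.

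Described in full are collagens that passed and, per class, the 3 brightest detected genes. Of the other lists, called genes and up to 3 that passed with the largest differences are named. Further genes were named after their values were seen. The members and lists were chosen with earlier results of these data known. Probe positions follow the array's annotation on mm9. Promoters are from RefSeq. Protein sequences were not used here. Precision is limited by the number of arrays, and p-values measure the spread between these samples.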

Additional observations from a re-analysis of the deposited data

How the results depend on the processing

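Of 329 values of the 22 collagens described in full under an alternative, 227 kept direction and side of the threshold, 54 fell below it, 45 rose above it and 3 turned. Col6a4 turned to -0.20 with the 75th percentile shift, and Col8a2 turned to 0.07 with the mean of all probes and ranged from -0.61 to 0.08 without single arrays, the latter without A-/G+ replicate 3. Collagens called higher in A+/G+ (3) became 7 with a 2-fold limit and 0 to 4 without single arrays. Those called higher in A-/G+ (2) became 4 with the 75th percentile shift, 1 with normexp or the mean of all probes, and 1 to 2 without single arrays. Over all genes, the calls higher in A+/G+ (630) became 190 with normexp and 241 to 1018 without single arrays. The calls of all genes higher in A-/G+ (106) became 566 with the 75th percentile shift, 40 with normexp and 46 to 176 without single arrays. Calls over all genes were not counted at the 2-fold limit or with the mean of all probes. Collagens that passed higher in A+/G+ (8) became 15 with the 75th percentile shift, 19 with normexp, 16 of the 34 tested with a filter on dim probes (7.47%, 10.8% and 16.1% of all genes), 13 with trend and robust variance (7.44%) or the mean of all probes, and 0 to 14 without single arrays (2.23% to 11.9% of all genes). Those higher in A-/G+ (3) became 9 with the 75th percentile shift, where 22.2% of all genes passed in this direction, and 1 to 5 without single arrays (0.86% to 9.23% of all genes). Col1a2, Col3a1, Col4a2, Col16a1, Col18a1 and Col6a2 (higher in A+/G+) and Col23a1 (higher in A-/G+) were among the genes that passed with the 75th percentile shift, normexp, the filter or trend and robust variance. Pathway genes higher in A+/G+ (22) became 11 with the methods' t-test and 5 to 26 without single arrays, and those higher in A-/G+ (2) became 3 with the 75th percentile shift, 1 with the filter, the t-test or trend and robust variance, and 0 to 3 without single arrays. The median difference of all collagens (0.85) was 0.30 with the 75th percentile shift, where that of all genes was -0.39, and 0.29 with normexp. With normexp, the medians of fibrillar and basement membrane collagens were 0.68 and 0.21. The median of the other collagens was -0.07 with the shift, 0.11 with normexp and 0.99 with the filter. The cause of these changes was not tested, except that the filter left 14672 genes to test. The authors' log2 table and kept outlier spots moved no collagen count by more than 1.5 times.

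Deviations from the fraction means correlated by 0.126, 0.116 and -0.0313 between samples of replicates 1, 2 and 3 (25179 probes), so that the numbers were not taken to pair the samples. With the replicate number as a block, limma passed 0 of 44 collagens and 0 of the pathway genes in either direction, and 0 genes at all. Slide as a block could not be fitted. The A-/G+ arrays were dimmer, so that signal over background limits the low members most.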
